A study of Mus musculus with 20 samples.

Results

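Chemokine ligands, the small secreted proteins that direct leukocyte migration, were followed as a family across mouse abdominal skin. The family was taken as a list of 34 genes by name, and 33 of them were measured among the 22180 genes tested. Each measured ligand was read from the array feature that carried its gene symbol and no other, of which each had exactly 1. Ccl19, a ligand that guides dendritic cells and T cells within lymph nodes, counted as not measured because its 13 features also carried other symbols.

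The skin came from 20 C57/B6 mice aged 9 weeks, with 1 array per mouse and 5 mice in each of 4 groups. Control chow was fed to the CD-vehicle and CD-IMQ mice and a high fat diet to the others (HFD-vehicle, HFD-IMQ), for a time that no source used here gives. Over 5 days the shaved abdomen was treated once a day with vehicle or with 62.5 mg of Aldara, a cream holding 5% imiquimod (IMQ), and the mice were killed 24 h later. Imiquimod is an agonist of Toll-like receptor 7, and its repeated use on mouse skin is a common model of psoriasis-like inflammation. All values are log2 expression. The samples were whole skin, so fewer cells of a type and less RNA per cell cannot be told apart.

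Chemokines are grouped by the spacing of their first cysteines into CC, CXC, CX3C and XC families, and they act through G protein-coupled receptors on the cells they attract. Inflammatory chemokines are induced in keratinocytes, fibroblasts, endothelium and resident macrophages and recruit neutrophils, monocytes and T cells. Homeostatic chemokines are made without inflammation and position cells in tissue. Many of the genes lie side by side, and in the order of protein-coding genes in RefSeq (GRCm38.p6) Cxcl5, Ppbp, Pf4, Cxcl3, Cxcl15, Cxcl1 and Cxcl2 formed a run of 7 on chromosome 5. Ccl2, Ccl7, Ccl11, Ccl12, Ccl8 and Ccl1 formed a run of 6 on chromosome 11, and Ccl5, Ccl9, Ccl6, Ccl3 and Ccl4 a run of 5 on the same chromosome.

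Array medians lay between 2.86 and 3.04. Of the members, 6 had group means below the array median in all 4 groups, namely Ccl28, Cxcl11, Cxcl5, Ccl1, Cxcl15 and Cxcl3, and Ccl12, Ccl20, Ccl3 and Cxcl2 did so in some groups, so the size of their changes is uncertain. The skin markers Krt14 and Krt10 of keratinocytes and Col1a1 of fibroblasts had group means of at least 8.21. HFD-vehicle mouse 3 stood apart, holding 42.8% of the squared distance of its group from the group mean over all genes. It also had the lowest value of its group for 19 of the 33 ligands. Its mean over 6 hair inner root sheath genes was 10.86, where the other HFD-vehicle mice ranged from 8.16 to 9.17 and CD-vehicle mice from 2.95 to 6.92.

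A gene was called higher or lower where the limma test gave a Benjamini-Hochberg adjusted p below 0.05 over all 22180 genes. Adjusted p values below are of this kind unless another number of genes is given. In CD-fed mice, IMQ skin had 4 of 33 ligands called higher (12.1%) against 3.91% of all genes, and 5 called lower (15.2%) against 7.02% of all genes. After a further quantile normalization the all-gene split moved from 868 higher and 1556 lower to 1108 and 1301. In HFD-fed mice, 6 ligands were called higher (18.2%) against 3.65% of all genes and 2 lower (6.06%) against 2.24%. The median change of the 33 ligands was 0.075 in CD-fed and 0.039 in HFD-fed mice, beside 0.016 and -0.00067 for all genes. In at least 1 of 5 comparisons 12 ligands were called, and 21 were called in none.

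**Figure D1:**
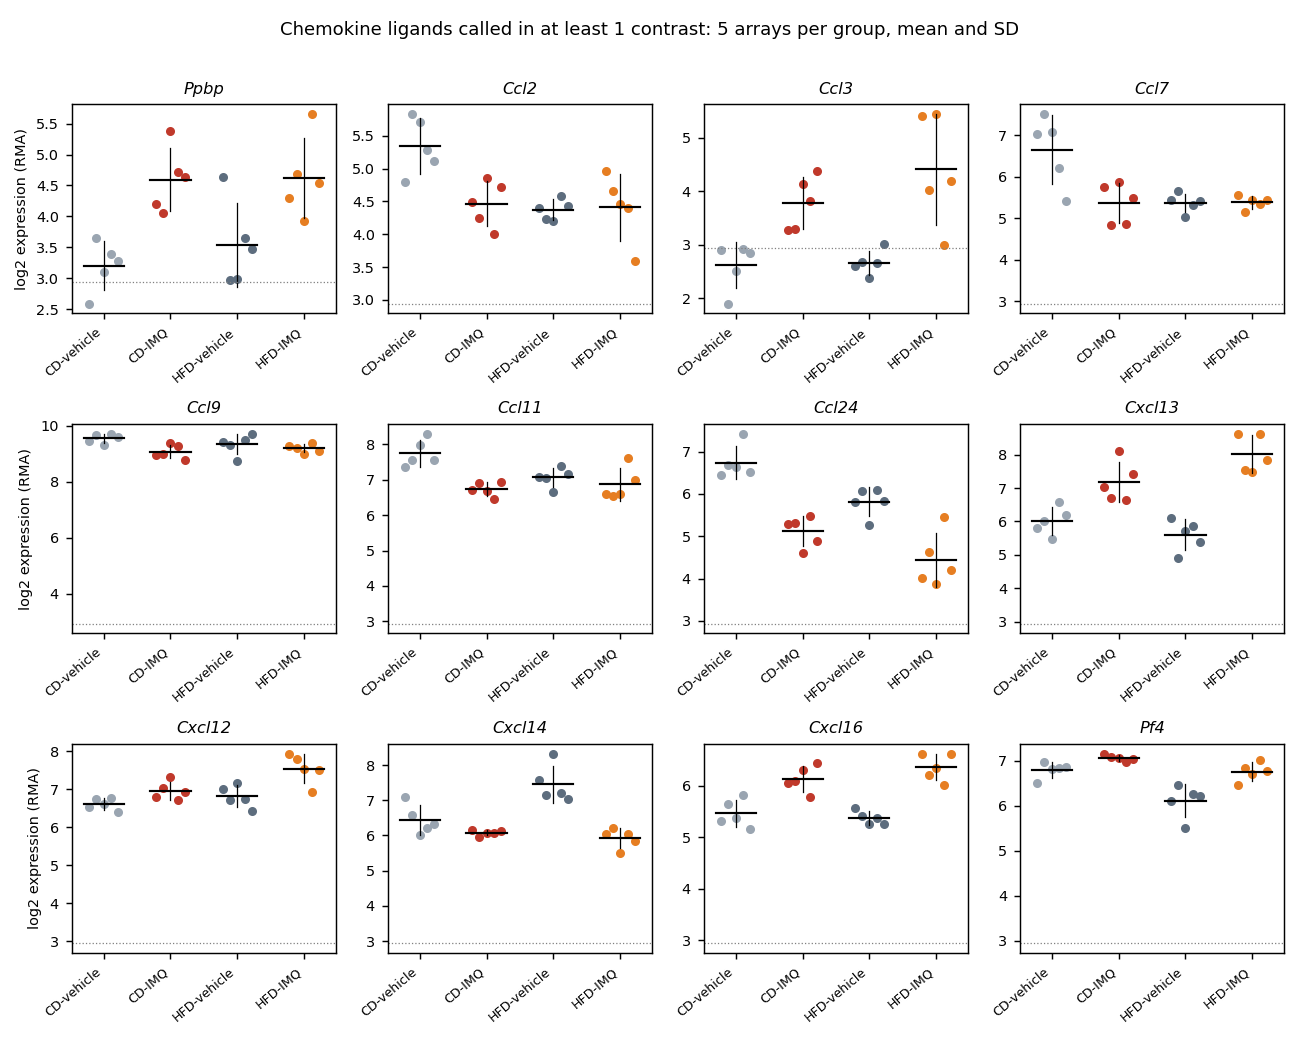
Log2 expression of the 12 ligands called in at least 1 comparison. Points are single mice, 5 per group, bars are the mean and SD, and the dotted line is the median of all array values, 2.94. Cxcl13 in both IMQ groups lies above both vehicle groups, from 6.66 upward against at most 6.59.

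**Figure D2:**
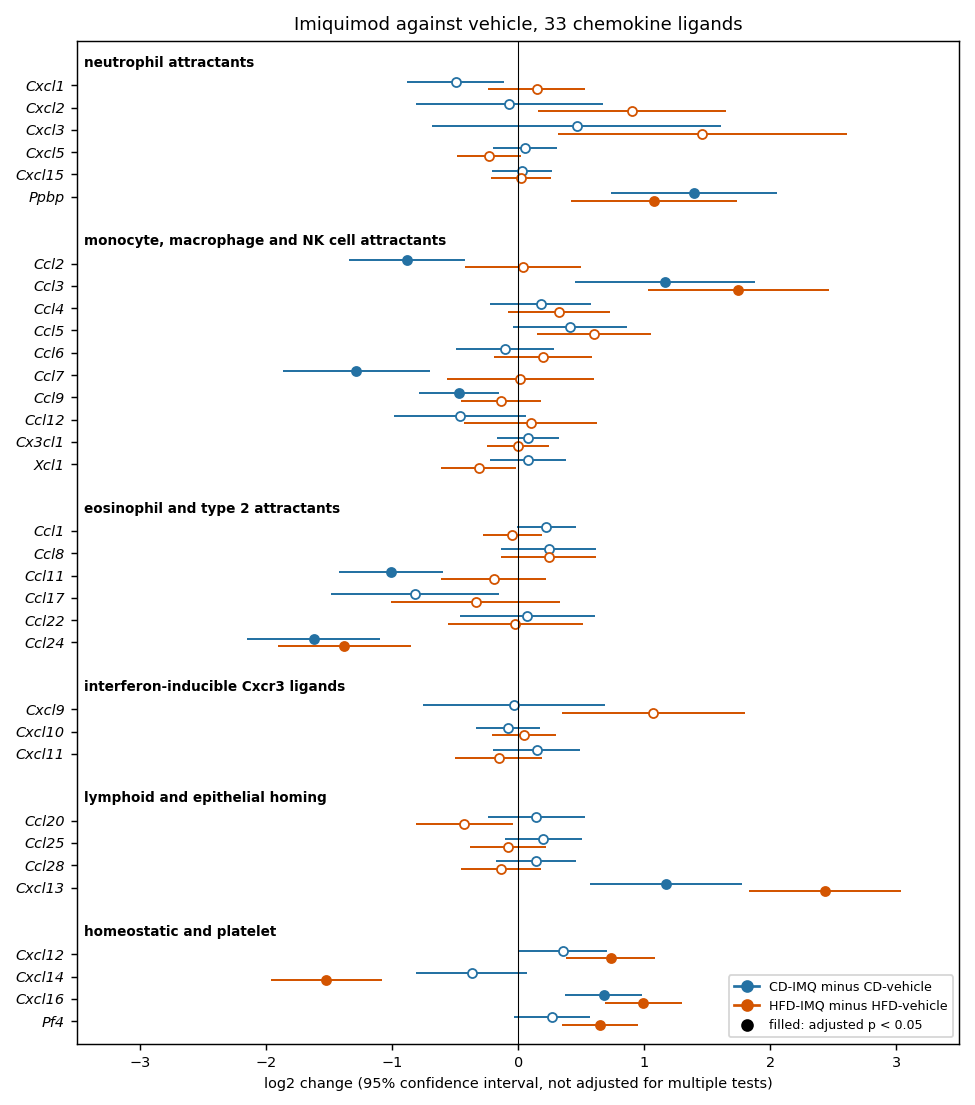
Log2 change of each of the 33 measured ligands after imiquimod, by diet, with 95% confidence intervals that are not adjusted for multiple tests. Filled points passed the adjusted threshold. Cxcl13 had the largest rise, 2.43 in HFD-fed mice, and Ccl24 the largest fall, -1.63 in CD-fed mice.

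Among the 6 neutrophil attractants, 1 rose in each diet, Ppbp, whose product is processed into the Cxcr2 ligand NAP-2 and is best known from platelets. Ppbp read 2.59, 3.65, 3.11, 3.39 and 3.29 in CD-vehicle mice 1 to 5 and 4.20, 4.06, 5.37, 4.71 and 4.63 in CD-IMQ mice. The 2 groups did not overlap, and Ppbp rose by 1.39 ± 0.31 (SE, n = 5 per group, adjusted p = 0.00514). In HFD-vehicle mice it read 4.63, 2.97, 2.98, 3.65 and 3.48, and in HFD-IMQ mice 4.29, 4.69, 3.92, 5.66 and 4.54. These groups overlapped, since HFD-vehicle mouse 1 exceeded 3 of the 5 treated mice, and the rise was 1.08 ± 0.31 (adjusted p = 0.0428). That call was lost without any 1 of HFD-vehicle mice 2, 3, 4 or 5 or HFD-IMQ mice 1, 2, 4 or 5, with adjusted p from 0.0525 to 0.128, under the replicate block (0.0620), with trended and robust variances (0.0729) and with the 2 HFD groups fitted alone (0.0952). The platelet markers moved beside Ppbp in part: 1 of 7 measured rose in each diet, Itga2b in CD-fed mice (0.37, adjusted p = 0.0463) and Gp9 in HFD-fed mice (0.76, adjusted p = 0.0488). The mean over the 7 ranged from 2.70 to 2.96 in CD-vehicle, 2.94 to 3.16 in CD-IMQ, 2.68 to 3.10 in HFD-vehicle and 3.01 to 3.19 in HFD-IMQ mice, and its part in the result was not tested.

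Cxcl1, Cxcl2 and Cxcl3 are Cxcr2 ligands induced early in inflammation, and their promoters are shown because Cxcl2, Cxcl3 and the macrophage chemokine Ccl3 were all highest in the same HFD-IMQ mice. Windows from 250 bases before to 50 after the gene start, from RefSeq (GRCm38.p6), are printed 5′ to 3′ on the gene's strand. Capitals mark the stretch matching the NF-κB motif, searched on both strands; within its 11 bases 2 overlapping matches were found. The first capital lies at -71 in Cxcl1 (chr5:90890995-90891294, plus strand), -97 in Cxcl2 (chr5:90903649-90903948, plus strand) and -73 in Cxcl3 (chr5:90785851-90786150, plus strand). The Ccl3 window (chr11:83649329-83649628, minus strand) holds no match.
Cxcl1: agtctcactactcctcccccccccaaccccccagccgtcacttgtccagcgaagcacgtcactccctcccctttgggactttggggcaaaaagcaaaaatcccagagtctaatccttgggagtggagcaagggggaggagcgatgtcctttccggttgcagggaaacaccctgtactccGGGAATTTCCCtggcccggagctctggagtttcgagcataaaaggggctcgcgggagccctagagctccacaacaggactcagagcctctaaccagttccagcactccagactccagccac
Cxcl2: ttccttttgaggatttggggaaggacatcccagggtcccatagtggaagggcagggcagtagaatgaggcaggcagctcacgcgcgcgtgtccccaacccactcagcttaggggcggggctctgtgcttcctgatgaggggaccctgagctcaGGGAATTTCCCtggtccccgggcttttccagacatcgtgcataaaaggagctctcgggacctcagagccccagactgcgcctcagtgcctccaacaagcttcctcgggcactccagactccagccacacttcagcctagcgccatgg
Cxcl3: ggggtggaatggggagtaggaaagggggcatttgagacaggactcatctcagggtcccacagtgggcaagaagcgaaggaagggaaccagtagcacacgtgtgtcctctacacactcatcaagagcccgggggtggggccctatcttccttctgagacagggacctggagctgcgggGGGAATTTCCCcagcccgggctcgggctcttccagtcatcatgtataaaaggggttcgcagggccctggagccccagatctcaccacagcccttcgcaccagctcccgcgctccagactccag
Ccl3: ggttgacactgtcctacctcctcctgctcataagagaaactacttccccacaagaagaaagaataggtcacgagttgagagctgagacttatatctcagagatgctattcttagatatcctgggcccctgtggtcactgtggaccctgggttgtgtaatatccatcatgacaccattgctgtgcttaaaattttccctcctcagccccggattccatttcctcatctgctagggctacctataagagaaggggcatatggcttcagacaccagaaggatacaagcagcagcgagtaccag
Of 34 members 25 had a promoter entry, and 6 of these held the motif (Ccl20, Ccl9, Cxcl1, Cxcl10, Cxcl2 and Cxcl3), where 4.51% of 32851 windows did. A match is a description of these letters and not evidence of binding.

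In HFD-IMQ mice 1 to 5 Cxcl3 read 4.47, 1.52, 5.06, 1.18 and 1.13, and Cxcl2 read 5.02, 3.64, 4.73, 2.47 and 2.98. Mice 1 and 3 were thus the highest for both genes, while the other 3 mice lay within the HFD-vehicle range of 0.92 to 1.55 for Cxcl3 and 2.22 to 3.77 for Cxcl2. Neither gene was called, with changes of 1.46 (95% interval 0.32 to 2.60, adjusted p = 0.145) for Cxcl3 and 0.90 (0.16 to 1.64, adjusted p = 0.170) for Cxcl2. Without HFD-IMQ mouse 4 both passed, at 1.83 (adjusted p = 0.0470) and 1.22 (adjusted p = 0.0219). In CD-fed mice the changes were 0.46 and -0.07, neither called. Cxcl1 had means of 3.71 ± 0.30 (SD, n = 5) in CD-vehicle, 3.21 ± 0.32 in CD-IMQ, 3.08 ± 0.31 in HFD-vehicle and 3.22 ± 0.31 in HFD-IMQ mice and was not called for IMQ in either diet (adjusted p = 0.0812 and 0.791). Cxcl5 (range 1.83 to 2.62) and Cxcl15 (1.27 to 1.85), the latter a neutrophil attractant best known from lung, stayed below the array median in all groups and were not called.

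**Figure D3:**
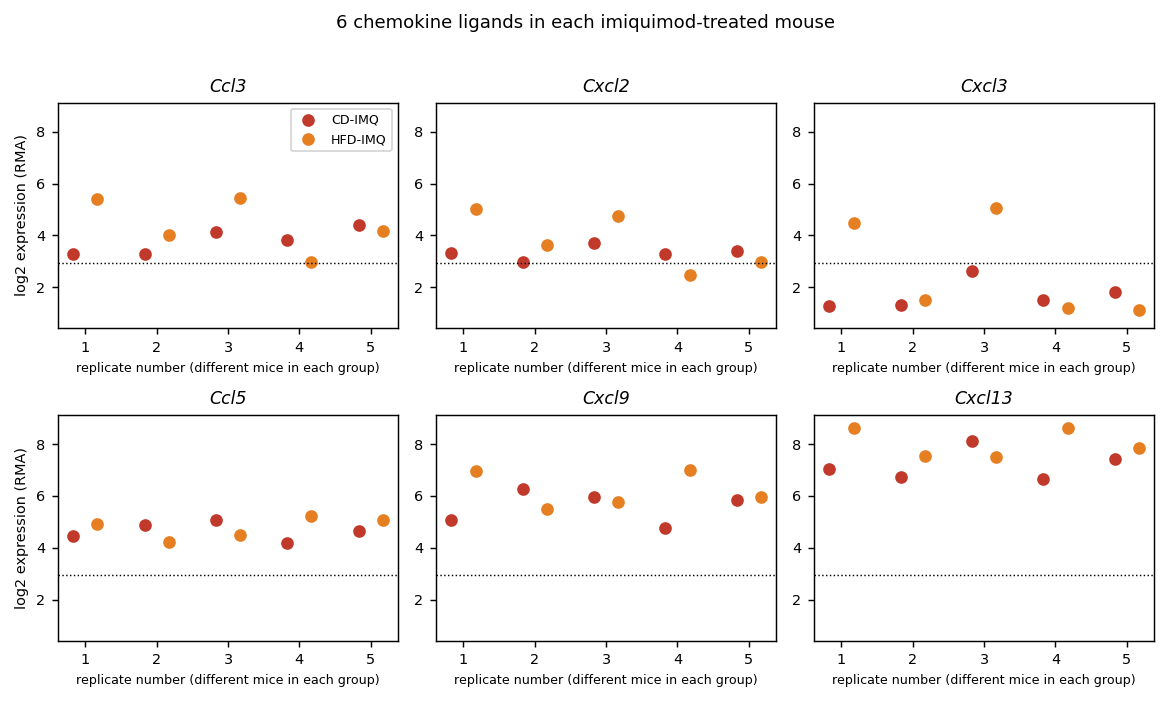
Log2 expression of 6 ligands in each imiquimod-treated mouse. Replicate numbers on the horizontal axis name different mice in the 2 diets, and the dotted line is the median of all array values. Ccl3, Cxcl2 and Cxcl3 are highest in HFD-IMQ mice 1 and 3, while Cxcl9 and Cxcl13 are highest in HFD-IMQ mice 1 and 4.

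The receptor Cxcr2, through which neutrophils sense these ligands, rose in both diets. It read 3.94, 3.49, 3.60, 3.73 and 3.70 in CD-vehicle and 4.17, 4.68, 4.85, 5.02 and 4.44 in CD-IMQ mice, a rise of 0.94 ± 0.18 (adjusted p = 0.00120). It read 3.87, 3.87, 3.66, 4.43 and 3.52 in HFD-vehicle and 5.71, 4.91, 5.22, 5.62 and 5.24 in HFD-IMQ mice, a rise of 1.47 ± 0.18 (adjusted p = 9.43e-06). Neither pair of groups overlapped. Of 17 measured neutrophil markers, a list that includes Cxcr2, 6 rose in CD-fed and 9 in HFD-fed mice and none was called lower in either. Calprotectin subunits led them, with S100a8 at 6.13 and S100a9 at 5.56 in CD-fed mice, although keratinocytes also make both. The mean over the 17 ranged from 2.61 to 2.92 in CD-vehicle, 3.65 to 4.13 in CD-IMQ, 2.73 to 3.22 in HFD-vehicle and 3.85 to 4.32 in HFD-IMQ mice. The median change of the 17 was 0.49 in CD-fed and 1.11 in HFD-fed mice. In CD-fed mice the mean thus leans on S100a8 and S100a9, which are not specific to neutrophils. The part of these markers in the ligand values was not tested.

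Most of the 10 ligands of the next role attract monocytes, macrophages or NK cells, and the 10 moved in both directions. In CD-fed mice Ccl3 rose while Ccl2, Ccl7 and Ccl9 fell. In HFD-fed mice Ccl3 alone of the 10 was called. Of 13 macrophage and monocyte markers 7 rose in CD-fed and 11 in HFD-fed mice, led by Adgre1 (1.12 and 1.92) and Ms4a7 (1.17 and 1.82). The mean over the 13 ranged from 6.89 to 7.30 in CD-vehicle, 7.40 to 7.80 in CD-IMQ, 6.49 to 7.16 in HFD-vehicle and 7.56 to 8.20 in HFD-IMQ mice, and its part in these results was not tested.

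Ccl3, a chemokine released by activated macrophages, read 2.91, 1.90, 2.52, 2.92 and 2.86 in CD-vehicle and 3.29, 3.29, 4.13, 3.82 and 4.39 in CD-IMQ mice. The groups did not overlap and the rise was 1.16 ± 0.34 (adjusted p = 0.0296), but the call was lost without any 1 of CD-vehicle mice 2 or 3 or CD-IMQ mice 3, 4 or 5, with adjusted p from 0.0603 to 0.0907. It was also lost with trended and robust variances (adjusted p = 0.0534). In HFD-vehicle mice Ccl3 read 2.60, 2.68, 2.39, 2.66 and 3.01, and in HFD-IMQ mice 5.41, 4.03, 5.44, 2.99 and 4.19. Only HFD-IMQ mouse 4 fell within the vehicle range, and the rise was 1.75 ± 0.34 (adjusted p = 0.00209). Its genomic neighbour Ccl4, also made by activated macrophages, changed by 0.18 and 0.32 and was called in neither diet (adjusted p = 0.636 and 0.434). Without HFD-vehicle mouse 5 the change in HFD-fed mice was called, at 0.53 (adjusted p = 0.0489).

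Ccl2, the main Ccr2 ligand for monocytes, had its highest group mean in vehicle-treated skin of chow-fed mice, 5.35, where the other groups had 4.37 to 4.47. It read 4.80, 5.84, 5.72, 5.29 and 5.11 in CD-vehicle and 4.50, 4.24, 4.86, 4.01 and 4.73 in CD-IMQ mice, a fall of 0.88 on the log2 scale (SE 0.22, adjusted p = 0.00980). Only CD-vehicle mouse 1 reached the treated range. HFD-vehicle mice read 4.40, 4.23, 4.21, 4.59 and 4.44 and HFD-IMQ mice 4.96, 4.66, 4.45, 4.40 and 3.58, a difference of 0.04 (95% interval -0.41 to 0.49, adjusted p = 0.967).

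Ccl7, which lies beside Ccl2 and shares its receptor Ccr2, likewise had its highest group mean in CD-vehicle mice, 6.65, with 5.36 to 5.38 in the other groups. It read 7.02, 7.51, 7.08, 6.21 and 5.41 in CD-vehicle and 5.74, 4.84, 5.88, 4.86 and 5.48 in CD-IMQ mice, and it fell by 1.29 on the log2 scale (SE 0.28, adjusted p = 0.00366). CD-vehicle mouse 5 lay within the treated range. HFD-vehicle mice read 5.43, 5.65, 5.04, 5.32 and 5.41 and HFD-IMQ mice 5.55, 5.14, 5.43, 5.34 and 5.44, a difference of 0.01 (95% interval -0.56 to 0.59, adjusted p = 0.992). The receptor Ccr2 was not called in any comparison.

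Ccl9, a Ccr1 ligand of myeloid cells, read 9.45, 9.67, 9.30, 9.70 and 9.58 in CD-vehicle and 8.95, 9.00, 9.36, 9.27 and 8.77 in CD-IMQ mice. It fell by 0.47 on the log2 scale (SE 0.15, adjusted p = 0.0442), with CD-IMQ mouse 3 above the lowest vehicle mouse. The call was lost without any 1 of CD-vehicle mice 1, 2, 4 or 5 or CD-IMQ mice 1, 2 or 5, with adjusted p from 0.0606 to 0.130. In HFD-vehicle mice it read 9.40, 9.31, 8.74, 9.49 and 9.71 and in HFD-IMQ mice 9.28, 9.20, 9.00, 9.40 and 9.10, which was not called (-0.14, adjusted p = 0.753).

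The other members of this role were called in no comparison. Ccl5, a chemokine made by T and NK cells, had means of 4.24 in CD-vehicle, 4.64 in CD-IMQ, 4.19 in HFD-vehicle and 4.78 in HFD-IMQ mice (range 3.58 to 5.21). Its change in HFD-fed mice was 0.60 (adjusted p = 0.121), and it passed without HFD-IMQ mouse 2 (0.74, adjusted p = 0.0458). Beside it 1 of 10 T and NK cell markers, Cd4, rose in each diet. Ccl6, a macrophage chemokine, had means from 8.59 to 8.79 (range 7.81 to 9.12). Ccl12, a Ccr2 ligand, had means of 3.21, 2.75, 2.76 and 2.86 in the same order (range 2.01 to 3.86). Ccl4 means lay from 3.19 to 3.60 (range 2.71 to 4.11). Cx3cl1, the membrane-tethered ligand of Cx3cr1, had means from 3.39 to 3.53 (range 2.99 to 3.69), and Xcl1, which attracts Xcr1-bearing dendritic cells, from 3.31 to 3.79 (range 2.96 to 4.08).

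The eosinophil and type 2 attractants held the largest fall of the family. Ccl24 (eotaxin-2), a Ccr3 ligand made by alternatively activated macrophages, fell in both diets. It read 6.44, 6.69, 6.63, 7.42 and 6.52 in CD-vehicle and 5.28, 5.32, 4.62, 5.47 and 4.88 in CD-IMQ mice, with no overlap, and fell by 1.63 on the log2 scale (SE 0.25, adjusted p = 0.000146), a fold of 3.09. It read 5.82, 6.07, 5.26, 6.10 and 5.82 in HFD-vehicle and 4.02, 4.63, 3.87, 5.46 and 4.20 in HFD-IMQ mice, and fell by 1.38 (SE 0.25, adjusted p = 0.00103). Here HFD-IMQ mouse 4 lay above the lowest vehicle mouse, HFD-vehicle mouse 3. Ccl24 was the only ligand called lower in both diets, 20% of the CD calls and 50% of the HFD calls.

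Ccl11 (eotaxin-1), a Ccr3 ligand made by dermal fibroblasts, read 7.35, 7.56, 7.97, 8.30 and 7.57 in CD-vehicle and 6.69, 6.90, 6.69, 6.45 and 6.93 in CD-IMQ mice. The groups did not overlap, and Ccl11 fell by 1.01 on the log2 scale (SE 0.20, adjusted p = 0.00143). HFD-vehicle mice read 7.07, 7.05, 6.65, 7.38 and 7.17 and HFD-IMQ mice 6.60, 6.53, 6.59, 7.62 and 7.0004, which was not called (-0.20, adjusted p = 0.721). Fibroblast markers moved beside it, with 4 of 7 lower in CD-fed and 2 of 7 in HFD-fed mice. Their mean ranged from 9.19 to 9.77 in CD-vehicle, 8.93 to 9.26 in CD-IMQ, 9.20 to 9.73 in HFD-vehicle and 8.67 to 9.59 in HFD-IMQ mice, and their part in the result was not tested.

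Eosinophil markers were low, with group averages of their mean from 2.24 to 2.34, below the array median. Of 7 measured, 0 were called in any comparison by limma, the eosinophil granule gene Epx had group means from 2.26 to 2.57 and Prg2 from 1.78 to 1.94, and Ccr3 had means from 2.52 to 2.79. Single mice ranged from 2.05 to 3.73 for Ccr3, and the highest was CD-vehicle mouse 4. Of 12 resident and alternatively activated macrophage markers, 3 rose and 2 fell in CD-fed mice and 4 rose and 2 fell in HFD-fed mice. The rest of this role was called in no comparison. Ccl17, a Ccr4 ligand of dendritic cells, had means of 4.13 ± 0.96 (SD, n = 5) in CD-vehicle, 3.31 ± 0.34 in CD-IMQ, 3.59 ± 0.42 in HFD-vehicle and 3.25 ± 0.37 in HFD-IMQ mice (range 2.82 to 5.60). Without CD-vehicle mouse 1 its change in CD-fed mice was called, at -1.09 (adjusted p = 0.0232). Ccl22, its partner at Ccr4, had means from 3.57 to 3.84 (range 2.98 to 4.70), Ccl8, a Ccr8 ligand in mice, from 8.75 to 9.11 (range 8.24 to 9.52), and Ccl1, another Ccr8 ligand, from 2.10 to 2.32 (range 1.90 to 2.58).

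None of the 3 interferon-inducible Cxcr3 ligands was called. Cxcl9 read 5.65, 5.19, 4.51, 4.92 and 5.56 in HFD-vehicle and 6.96, 5.52, 5.77, 6.998 and 5.94 in HFD-IMQ mice, with HFD-IMQ mice 1 and 4 the highest. The change was 1.07 (95% interval 0.35 to 1.79, adjusted p = 0.0759), and it passed without HFD-IMQ mouse 2 (1.25, adjusted p = 0.0428). In CD-fed mice it was -0.04 (95% interval -0.75 to 0.68). Cxcl10 had means from 3.01 to 3.10 (range 2.64 to 3.30) and Cxcl11, listed in RefSeq as a transcribed pseudogene in the reference strain, from 2.17 to 2.39 (range 1.95 to 2.88). Of 7 interferon response genes 2 fell in CD-fed mice and 1, Irf7, rose in HFD-fed mice (0.75, adjusted p = 0.0153). The receptor Cxcr3 was not called.

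Cxcl13, which draws B cells and other Cxcr5-bearing cells to lymphoid follicles, was the ligand with the largest rise. It read 5.80, 6.02, 5.46, 6.59 and 6.18 in CD-vehicle and 7.03, 6.72, 8.12, 6.66 and 7.41 in CD-IMQ mice, with no overlap, a rise of 1.17 ± 0.29 (adjusted p = 0.00922) or 2.26-fold. It read 6.10, 4.90, 5.72, 5.87 and 5.39 in HFD-vehicle and 8.62, 7.53, 7.49, 8.63 and 7.85 in HFD-IMQ mice, again with no overlap, a rise of 2.43 ± 0.29 (adjusted p = 7.01e-06) or 5.39-fold. Its receptor Cxcr5 was not called. The epithelial homing ligands were called in no comparison of the fit over all arrays. Ccl20, the Ccr6 ligand, had means of 2.64 in CD-vehicle, 2.79 in CD-IMQ, 3.08 in HFD-vehicle and 2.65 in HFD-IMQ mice (range 2.32 to 3.55). With array weights its change with imiquimod in HFD-fed mice was called, at -0.58 (adjusted p = 0.0380), where it was -0.43 (adjusted p = 0.217) without them. Ccl25, the Ccr9 ligand, had means from 3.27 to 3.47 (range 2.83 to 3.80), and Ccl28, a Ccr10 ligand of epithelia, from 2.36 to 2.64 (range 1.91 to 2.84).

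Of the homeostatic and platelet ligands, 1 of 4 rose in CD-fed mice, and 3 rose and 1 fell in HFD-fed mice. Cxcl16, a transmembrane ligand of Cxcr6 on macrophages and dendritic cells, read 5.32, 5.65, 5.37, 5.82 and 5.15 in CD-vehicle and 6.05, 6.09, 6.31, 5.79 and 6.45 in CD-IMQ mice. It rose by 0.68 ± 0.14 (adjusted p = 0.00334), with CD-IMQ mouse 4 just below CD-vehicle mouse 4. In HFD-vehicle mice it read 5.57, 5.42, 5.25, 5.37 and 5.26 and in HFD-IMQ mice 6.62, 6.21, 6.35, 6.02 and 6.62, with no overlap and a rise of 0.99 ± 0.14 (adjusted p = 9.62e-05). Its receptor Cxcr6 also rose in both diets, by 0.95 ± 0.21 (adjusted p = 0.00520) and 1.08 ± 0.21 (adjusted p = 0.00243). Cxcr6 read 1.90, 2.13, 3.10, 2.75 and 2.82 in CD-vehicle, 3.79, 3.53, 3.05, 3.34 and 3.75 in CD-IMQ, 2.68, 2.35, 2.70, 3.16 and 3.11 in HFD-vehicle and 3.68, 4.18, 3.79, 3.48 and 4.27 in HFD-IMQ mice. The HFD groups did not overlap, and in the CD groups CD-IMQ mouse 3 lay below CD-vehicle mouse 3. Most vehicle values of Cxcr6 lay below the median of all array values, 2.94, so the size of its rise is uncertain.

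Cxcl12, the stromal ligand of Cxcr4 and of the scavenger Ackr3, was called in HFD-fed mice. It read 7.01, 6.71, 7.18, 6.74 and 6.42 in HFD-vehicle and 7.94, 7.79, 7.53, 6.94 and 7.51 in HFD-IMQ mice, a rise of 0.73 ± 0.17 (adjusted p = 0.00758), with HFD-IMQ mouse 4 within the vehicle range. In CD-vehicle mice it read 6.53, 6.74, 6.62, 6.76 and 6.39 and in CD-IMQ mice 6.80, 7.03, 7.33, 6.72 and 6.93, a change of 0.35 (95% interval 0.01 to 0.70, adjusted p = 0.198). Of 8 endothelial markers 1 rose in HFD-fed mice and 1 fell in CD-fed mice. Their mean ranged from 4.89 to 5.15 in CD-vehicle and 4.82 to 5.15 in CD-IMQ mice. It ranged from 4.74 to 5.28 in HFD-vehicle and 5.07 to 5.92 in HFD-IMQ mice. The part of these markers in the Cxcl12 result was not tested. Pf4 (platelet factor 4), a platelet granule protein also made by macrophages, read 6.11, 6.47, 5.50, 6.26 and 6.22 in HFD-vehicle and 6.46, 6.84, 6.70, 7.03 and 6.77 in HFD-IMQ mice. It rose by 0.65 ± 0.14 (adjusted p = 0.00581), with HFD-IMQ mouse 1 just below HFD-vehicle mouse 2. It read 6.51, 6.97, 6.82, 6.85 and 6.85 in CD-vehicle and 7.17, 7.09, 7.06, 6.97 and 7.04 in CD-IMQ mice, which was not called (0.26, adjusted p = 0.272).

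Cxcl14, a chemokine made by keratinocytes and fibroblasts of resting skin, read 7.58, 7.16, 8.33, 7.19 and 7.03 in HFD-vehicle and 6.05, 6.21, 5.50, 6.05 and 5.84 in HFD-IMQ mice. The groups did not overlap, and it fell by 1.53 on the log2 scale (SE 0.21, adjusted p = 4.41e-05). In CD-vehicle mice it read 7.10, 6.58, 6.002, 6.21 and 6.34 and in CD-IMQ mice 6.15, 5.96, 6.08, 6.06 and 6.13, a change of -0.37 (95% interval -0.80 to 0.06, adjusted p = 0.299). Hair inner root sheath genes fell in the same comparisons, 5 of 6 in CD-fed and 6 of 6 in HFD-fed mice. Their mean ranged from 2.95 to 6.92 in CD-vehicle, 2.83 to 3.50 in CD-IMQ, 8.16 to 10.86 in HFD-vehicle and 2.80 to 4.94 in HFD-IMQ mice, and their part in the Cxcl14 result was not tested. Fibroblast markers fell in part, as given for Ccl11, while keratinocyte markers rose, 5 of 5 measured in CD-fed and 4 of 5 in HFD-fed mice. That list includes the wound keratin Krt16, so its mean is not a measure of keratinocyte number alone. The keratinocyte mean ranged from 6.90 to 7.90 in CD-vehicle, 9.81 to 10.43 in CD-IMQ, 8.83 to 9.10 in HFD-vehicle and 9.88 to 10.74 in HFD-IMQ mice, and its part was not tested either.

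The 4 ligands called higher in CD-fed mice (Ccl3, Cxcl13, Cxcl16 and Ppbp) were all among the 6 called higher in HFD-fed mice, which is 100% of the first list and 66.7% of the second. This overlap includes the Ppbp call in HFD-fed mice, lost in 11 of 18 refits, and the Ccl3 call in CD-fed mice, lost in 6 of 18. Over the 33 ligands the changes in the 2 diets, which share no arrays, had a Pearson r of 0.70, and 16 of 33 had the same sign. The overlap, r and sign count were not computed over all genes, so they cannot tell whether ligands differ from other genes in this.

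The diet was compared first in vehicle-treated skin. There 1 of 33 ligands (3.03%) was called higher on the high fat diet against 1.22% of all genes, and 3 (9.09%) lower against 0.956% of all genes. These comparisons share the CD-vehicle and HFD-vehicle mice whose values stand above. Ccl2 fell by 0.98 on the log2 scale (SE 0.22, adjusted p = 0.0180), with every HFD-vehicle mouse below every CD-vehicle mouse. Ccl7 fell by 1.28 (SE 0.28, adjusted p = 0.0150), with CD-vehicle mouse 5 within the HFD range. Pf4 fell by 0.69 (SE 0.14, adjusted p = 0.0101), with no overlap. Cxcl14 rose by 1.01 ± 0.21 (adjusted p = 0.0101), with CD-vehicle mouse 1 reaching the HFD range.

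Without CD-vehicle mouse 3 the Ccl2 and Ccl7 calls were lost (adjusted p = 0.0661 and 0.0560), leaving 1 ligand called lower. With the 2 vehicle groups fitted alone, Ccl7 (0.0836), Pf4 (0.0759) and Cxcl14 (0.0870) were lost. Ccl24 lay just outside the threshold, at -0.92 ± 0.25 (adjusted p = 0.0538) with groups that did not overlap. It passed with only the 14159 genes above the array median in a group tested (adjusted p = 0.0415 over these genes) and under the replicate block (adjusted p = 0.00332). The change itself was the same in both. Cxcl1 at -0.63 (adjusted p = 0.0701) and Ccl11 at -0.68 (adjusted p = 0.0722) were not called. Cxcl1 passed without HFD-vehicle mouse 2 (-0.74, adjusted p = 0.0396).

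Cell markers also differed between the vehicle groups. All 6 hair inner root sheath genes and 4 of 5 keratinocyte genes were higher on the high fat diet, 3 of 9 mast cell genes were lower, and 1 of 13 macrophage genes, Lyz2, was lower (-0.50, adjusted p = 0.0481). In addition, 2 of 17 neutrophil and 1 of 8 Langerhans and dendritic cell genes were higher, and 1 of 7 interferon response genes was lower. The mast cell mean ranged from 4.86 to 5.04 in CD-vehicle and from 4.11 to 4.72 in HFD-vehicle mice. HFD-vehicle mouse 3, with the highest hair mean, had the highest Cxcl14 and the lowest Pf4 of its group. The part of these markers in the ligand values was not tested.

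**Figure D4:**
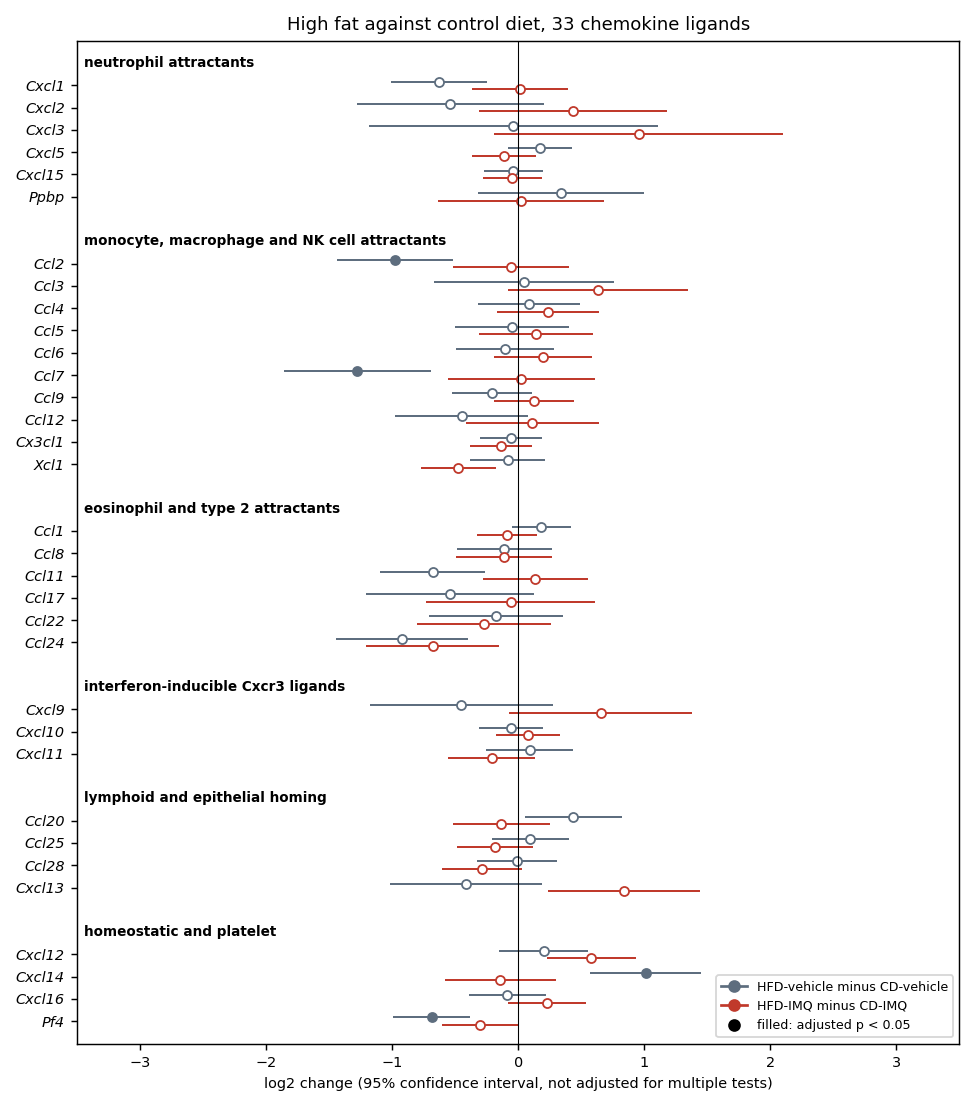
Log2 change of each of the 33 measured ligands on the high fat diet, in vehicle and in imiquimod skin, with 95% confidence intervals that are not adjusted for multiple tests. Filled points passed the adjusted threshold. The 4 filled points, Ccl2, Ccl7, Pf4 and Cxcl14, are all from vehicle skin.

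In IMQ-treated skin 0 of 33 ligands were called for diet by limma, and 0% of all genes were called higher and 0% lower. At an unadjusted p below 0.05 there were 5 ligands, beside 10.3% of all genes. They were Cxcl12 (0.58, adjusted p = 0.288), Xcl1 (-0.48, adjusted p = 0.298), Cxcl13 (0.84, adjusted p = 0.351), Ccl24 (-0.68, adjusted p = 0.378) and Pf4 (-0.30, adjusted p = 0.461). Xcl1 read 3.72, 3.84, 4.02, 3.69 and 3.69 in CD-IMQ and 3.53, 3.27, 2.96, 3.54 and 3.25 in HFD-IMQ mice, groups that did not overlap.

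Whether the response to imiquimod differed between diets was tested by the interaction, the HFD response minus the CD response. By limma 0 of 33 ligands were called, against 0.473% of all genes higher and 0.189% lower, a split of 105 to 42 that became 58 to 41 after a further quantile normalization and 134 to 30 after centring. At an unadjusted p below 0.05 there were 8 ligands, beside 15.9% of all genes. The lowest adjusted p were those of Cxcl14 (-1.16 ± 0.30, 0.0705), Ccl7 (1.30 ± 0.39, 0.105), Cxcl13 (1.26 ± 0.41, 0.126), Ccl2 (0.92 ± 0.31, 0.137) and Ccl11 (0.82 ± 0.28, 0.145). So for ligands called in 1 diet and not in the other, a difference between diets was not established at this threshold. Cxcl14 passed without CD-vehicle mouse 1 (-1.32, adjusted p = 0.0358) or HFD-vehicle mouse 5 (-1.27, adjusted p = 0.0478), and Ccl7 without CD-vehicle mouse 5 (1.61, adjusted p = 0.0169).

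Of 18 measured chemokine receptors 2 rose with imiquimod in CD-fed and 3 in HFD-fed mice, and 1 was lower on the high fat diet in vehicle skin. Beside Cxcr2 and Cxcr6 this was Cxcr4, the Cxcl12 receptor. Cxcr4 read 5.92, 5.91, 5.91, 5.99 and 5.89 in CD-vehicle, 5.33, 5.76, 5.82, 5.75 and 6.14 in CD-IMQ, 4.95, 4.98, 5.72, 4.97 and 4.99 in HFD-vehicle and 5.80, 6.07, 5.75, 5.32 and 6.05 in HFD-IMQ mice. It fell by 0.80 on the high fat diet in vehicle skin (SE 0.16, adjusted p = 0.00798) with no overlap, and rose by 0.68 ± 0.16 with imiquimod in HFD-fed mice (adjusted p = 0.0107). In that rise HFD-vehicle mouse 3, at 5.72, lay within the treated range.

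Atypical receptors bind chemokines without driving migration and remove them from tissue, and 3 of 5 measured genes of this list (which includes Ccrl2) fell with imiquimod in CD-fed mice. Ackr3, the scavenger of Cxcl12, read 6.04, 5.83, 5.91, 5.99 and 5.87 in CD-vehicle and 4.70, 4.71, 4.99, 4.35 and 4.45 in CD-IMQ mice, and fell by 1.29 on the log2 scale (SE 0.12, adjusted p = 2.71e-07). It read 5.15, 5.41, 5.08, 5.32 and 5.67 in HFD-vehicle and 4.89, 5.02, 4.92, 5.24 and 4.94 in HFD-IMQ mice, which overlapped (-0.32, adjusted p = 0.158). Its interaction was called, at 0.97 ± 0.18 (adjusted p = 0.0113), and in vehicle skin it fell by 0.60 on the high fat diet (adjusted p = 0.00991). Ackr2, a scavenger of inflammatory CC chemokines, fell by 0.66 (SE 0.13, adjusted p = 0.00129) in CD-fed mice, and Ackr4, which scavenges Ccl19 and Ccl25, fell by 0.63 (SE 0.16, adjusted p = 0.0114). Neither was called in HFD-fed mice (-0.15 and -0.43) or in the interaction (adjusted p = 0.159 and 0.713). Every CD-IMQ value of Ackr4 lay below the median of all array values, so the size of its fall is uncertain. Of 7 further chemokine ligands outside the family list 3 were measured and 0 were called by limma in any comparison.

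**Figure D5:**
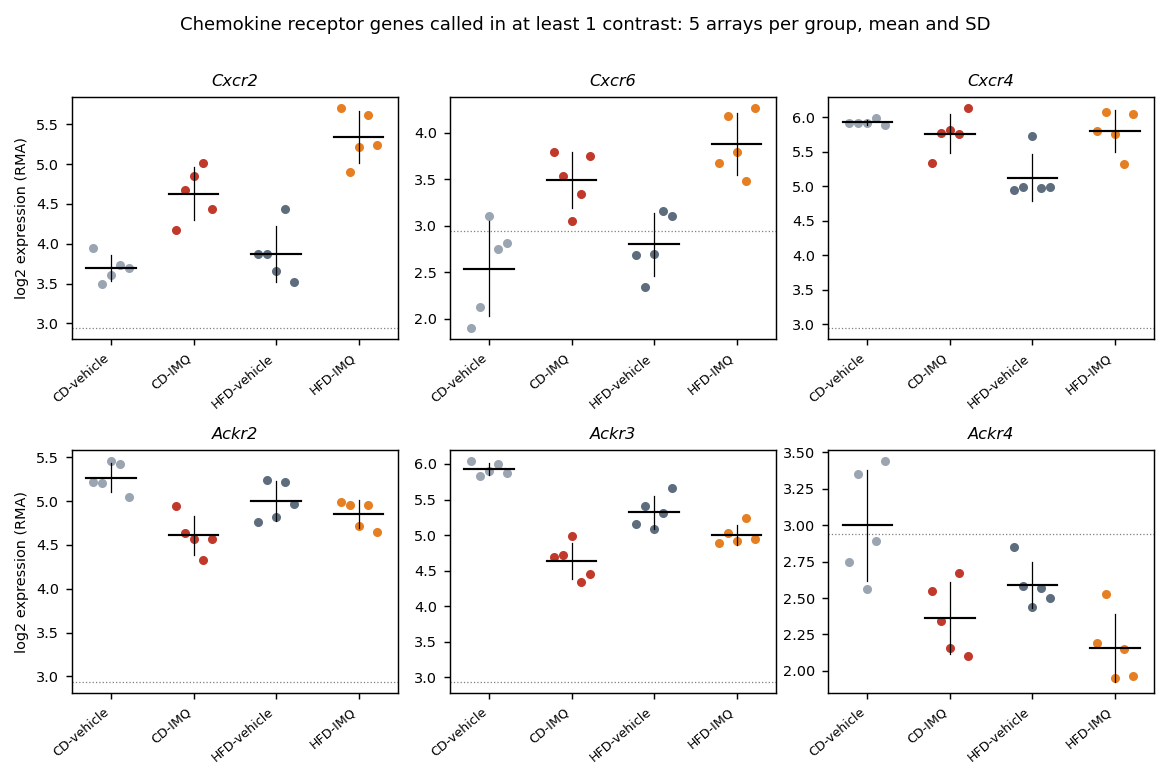
Log2 expression of the 6 chemokine receptor genes called in at least 1 comparison. Points are single mice, 5 per group, bars are the mean and SD, and the dotted line is the median of all array values. Ackr3 in CD-vehicle mice, from 5.83 to 6.04, lies above all other groups.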

How the data were processed

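Skin RNA of 20 mice was measured on Affymetrix arrays from 300 ng of total RNA, per the labels' protocols. The deposited values are log2 values made by the authors with RMA, a robust averaging over probes, in the affy package, per the submitters' processing notes. The sources used here give neither scan batches nor whether all arrays were normalized together. Of 41345 features 23521 carried 1 gene symbol, 1814 several and 16010 none. Each gene was read from its single-symbol feature with the highest mean, with no filter on dim genes. Array number limits the precision: the median SE of a difference was 0.136.

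Group means were fitted over all arrays with limma 3.58.1 (lmFit, eBayes) in R 4.3.3, and 5 contrasts were adjusted by Benjamini-Hochberg over 22180 genes. The fit was tested on simulated data. Alternatives changed the normalization, dim-gene filter, feature choice, variance model, array weights, groups fitted, replicate block and single arrays. Replicate numbers were not treated as pairs in the main fit. Of 30 same-number pairs 4 had residual correlations above 0.1 (-0.217 to 0.320). Such correlations cannot exclude a batch shared by mice of the same number. The members and lists were chosen with earlier results of these data known. Every member is named, called members with each array's value and the others with group means, a range, single values or a change. From receptor lists the called genes and at most 6 others are discussed. Marker lists are given by counts and single genes, and not every marker list is reported in every comparison. Tables and figures used Python 3.11.15, numpy 2.4.6, pandas 2.3.3 and matplotlib 3.10.9.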

Additional observations from a re-analysis of the deposited data

Results flagged for a closer look

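Among 132 combinations of ligand and group, 6 had a mouse far from the other 4 by Dixon's 95% criterion, where chance gives about 1 in 20. Ccl6 was lowest in HFD-vehicle mouse 3, at 7.81 with the nearest mouse at 8.67. Ccl24 was highest in CD-vehicle mouse 4, at 7.42 against 6.69. CD-vehicle mouse 2 was set apart for 3 genes, with Ccl8 at 9.10 against 8.85, Cxcl5 at 1.94 against 2.21 and Cx3cl1 at 3.69 against 3.44. Cx3cl1 was lowest in HFD-IMQ mouse 5, at 2.99 against 3.44.

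By the limma interaction, the response to imiquimod differed between diets for 0 of the 33 ligands and for 7 genes of the receptor and marker lists. Of all genes 0.473% were called higher and 0.189% lower. The difference, HFD minus CD, was 0.97 (SE 0.18, adjusted p = 0.0113) for the scavenger receptor Ackr3 and 1.16 (SE 0.25, adjusted p = 0.0353) for Hdc, the histamine-synthesizing enzyme of mast cells. It was -2.67 (adjusted p = 0.0387) for the wound keratin Krt16. For the inner root sheath keratins it was -3.53 (Krt25, adjusted p = 0.0375), -3.91 (Krt27, 0.0184), -3.17 (Krt28, 0.0286) and -3.05 (Krt73, 0.0436).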

How the results depend on the processing

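Of the 21 calls of single ligands 14 held under every alternative run, 7 were lost under at least 1, and 0 of 378 refits reversed one. With only the 2 groups compared in the fit, the ligands called for diet in vehicle skin fell from 1 to 0 higher and from 3 to 1 lower. Leaving out 1 mouse at a time gave 1 to 4 called lower there. After a further quantile normalization 1 ligand was called lower in the interaction, Cxcl14 (-1.27, adjusted p = 0.0458), and leaving out 1 mouse gave 0 to 1 higher and 0 to 1 lower. With the replicate number as a replicate block, 5 ligands were called higher and 2 lower for imiquimod in HFD-fed mice, Ppbp being lost (adjusted p = 0.0620), and 4 were called lower for diet in vehicle skin, Ccl24 being gained (adjusted p = 0.00332); it changed no other ligand call. Of 20 arrays 3 correlated best with an array of their own number. Among 144 uncalled ligand comparisons 42 changed sign under some alternative, all with changes of at most 0.24. Signal over background limits the ligands and receptors near or below the array median, whose sizes of change are uncertain.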
